A study of Mus musculus with 2 samples.

Results

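Potassium channel genes were followed across the cell classes of the adult mouse brain in a pair of single-cell RNA libraries. Every gene whose symbol begins with Kcn, continues in letters and ends in a number was considered, which gave 92 of the 25906 genes in the count matrices. The 71 genes with at least 30 unique molecular identifiers (UMIs, counts of distinct captured transcripts) over all barcodes of both libraries were kept. Of the other 21 genes, 16 had 1 to 29 UMIs and 5 had none. Just inside the limit lay Kcng1, Kcnmb1 and Kcnv1 with 31 UMIs each, and just outside lay Kcnh4 with 29 and Kcnk7 with 28. The 71 genes comprised 29 voltage-gated channel subunits, 12 inward rectifiers, 10 tandem-pore domain (leak) channels, 8 channels activated by calcium or sodium, and 12 auxiliary subunits.

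The material was brain tissue of adult mice, taken whole and sorted for endothelial cells and astrocytes, with a single 10x library for each of 2 genotypes. The control library came from IL34LacZ/+ mice, which the study treats as wild type, and the mutant library from IL34LacZ/LacZ mice, its knockout. Mice of both genotypes therefore carried a LacZ allele of the gene for interleukin-34, which signals to microglia and macrophages through Csf1r. Both sorted populations appear in the cell type field, but the titles mention astrocytes alone. The sort markers, the exact age and the number of mice behind each library are not given in the sources used here. With 1 library per genotype there is no measure of variation between animals, so no test was made. The intervals given below are 95% intervals for counting error only.

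Potassium channels set the resting potential of a cell and return it to rest after activity. Pore-forming subunits are grouped by how they open: voltage-gated channels on depolarization, calcium-activated channels on a rise of calcium, inward rectifiers mainly near rest, and tandem-pore channels as a background leak, while auxiliary subunits change where and how the pores work. In the brain, astrocytes clear potassium released by neurons, choroid plexus epithelium moves potassium while secreting cerebrospinal fluid, and the channel that pericytes and vascular muscle build from Kcnj8 and the sulfonylurea receptor Abcc9 opens when ATP is low and dilates vessels.

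After filtering, 1646 control and 1167 mutant cells remained, with median depths of 8026 and 10366 UMIs. Each cell was assigned to the class whose marker genes had the highest mean log-scaled expression in it. A class is therefore a range of marker scores with the name of its markers. The classes compared, each with at least 50 cells over both libraries, held 525 control and 306 mutant endothelial-like cells, 251 and 116 astrocyte-like, 349 and 257 choroid plexus epithelium-like, 250 and 234 oligodendrocyte-like, 34 and 49 pericyte-like, 66 and 56 cells with markers of Slc47a1 border cells (a mesenchymal population of the brain's coverings), and 44 and 10 microglia-like cells. A stricter gate would drop 45 of the 122 border-like cells, 30 of the 606 choroid plexus-like cells and at most 10 cells of any other compared class. Of these classes, only the endothelial-like and astrocyte-like cells match the sorted populations named in the labels. In endothelial-like and astrocyte-like cells all 10 markers of the class were detected in both libraries, but 5 of 6 border markers were detected and none of them was among the 10 leading genes of that class. Median depths in control and mutant cells were 4336 and 4834 UMIs in endothelial-like cells, 8505 and 9030.5 in astrocyte-like, 12300 and 14022 in choroid plexus-like, 13727 and 16445 in oligodendrocyte-like, 4149 and 4753 in pericyte-like and 14030.5 and 15714.5 in border-like cells. Microglia-like cells were shallow, with medians of 1756 and 1722.5 UMIs, and their channel counts were few. Fibroblast-like (22 and 23) and neuron-like (11 and 11) cells were too few to compare and are quoted only as a reference.

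The upstream sequences of 3 genes are shown because these genes were abundant in 1 class and low in the other compared classes: Kcnj13 and Kcne2 in choroid plexus-like cells and Kcnj8 in pericyte-like cells. Each is the 250 bases before a RefSeq start of the gene, 5′ to 3′ on the gene's own strand, from GRCm38.p6. They lie at chr1:87394730-87394979 (minus strand) for Kcnj13, chr16:92292139-92292388 (plus strand) for Kcne2 and chr6:142571615-142571864 (minus strand) for Kcnj8. Kcne2 has another RefSeq start, whose window (chr16:92295366-92295615) is not shown and holds 1 CpG dinucleotide and none of the motifs below. Capitals mark the letters TATAAA, the core of the TATA box.
Kcnj13: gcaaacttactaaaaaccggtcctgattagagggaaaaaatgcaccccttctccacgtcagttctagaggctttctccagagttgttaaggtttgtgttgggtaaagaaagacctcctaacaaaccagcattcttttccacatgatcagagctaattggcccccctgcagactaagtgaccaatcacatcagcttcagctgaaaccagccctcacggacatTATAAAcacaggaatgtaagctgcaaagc
Kcne2: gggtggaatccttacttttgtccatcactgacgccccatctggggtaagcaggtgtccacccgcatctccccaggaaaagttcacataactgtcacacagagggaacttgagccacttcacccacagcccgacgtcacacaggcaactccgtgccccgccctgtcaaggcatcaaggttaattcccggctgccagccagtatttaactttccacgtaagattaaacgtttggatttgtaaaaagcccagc
Kcnj8: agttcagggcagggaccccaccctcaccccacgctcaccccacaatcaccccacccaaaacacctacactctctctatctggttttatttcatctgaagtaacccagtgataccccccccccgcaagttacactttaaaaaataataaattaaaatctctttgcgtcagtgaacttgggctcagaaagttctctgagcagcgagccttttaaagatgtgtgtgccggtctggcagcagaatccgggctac
In all, 3 short motifs were searched on both strands in all 32851 RefSeq windows of this length: TATAAA, found in 12.4% of windows, the OTX core TAATCC, found in 6.25%, and the SOX core ACAATG, found in 10.7%. TATAAA begins 29 bases before the start of Kcnj13 and is not in the windows of Kcne2 or Kcnj8, and neither other motif is in any of the 3 windows. Of the 21 genes led by 1 class (defined below), 18 had a window, of which 2 held TATAAA, 2 held ACAATG and none held TAATCC. These counts are per gene, over all of its windows, while the shares above are per window, so they are not directly comparable. The windows shown for Kcnj13, Kcne2 and Kcnj8 held 3, 9 and 6 CpG dinucleotides, against a median of 6 over all windows.

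Expression was summed over the cells of a class and library and given as CPM, the count scaled to 1e6 UMIs of that class. At a level of 20 CPM in both libraries, 39 of the 71 genes were present in at least 1 compared class and 32 in none. Of these, 24 reached that level in exactly 1 class, 11 in 2 and 4 in 3 or more. Microglia-like cells held 3 genes at that level, although a count of 0 allows up to 34.5 and 177 CPM there. Pericyte-like cells held 11, where a count of 0 allows up to 17.6 and 11.3 CPM, so such entries can rest on few UMIs. A gene was called led by a class when it stood at least 3-fold above every other compared class in both libraries. This held for 21 of 71 genes (29.6%), where 14.6% of the 15190 genes with as many UMIs passed the same rule. Astrocyte-like cells led 10 of them (3.37% of all genes were led by this class), choroid plexus-like cells 3 (2.42%), oligodendrocyte-like cells 3 (2.63%), pericyte-like cells 3 (1.25%) and border-like cells 2 (1.9%). Endothelial-like and microglia-like cells led none (2.66% and 0.349%). The rule compares the 7 classes only: 8 of the 21 genes stood higher in the few fibroblast-like or neuron-like cells.

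**Figure D1:**
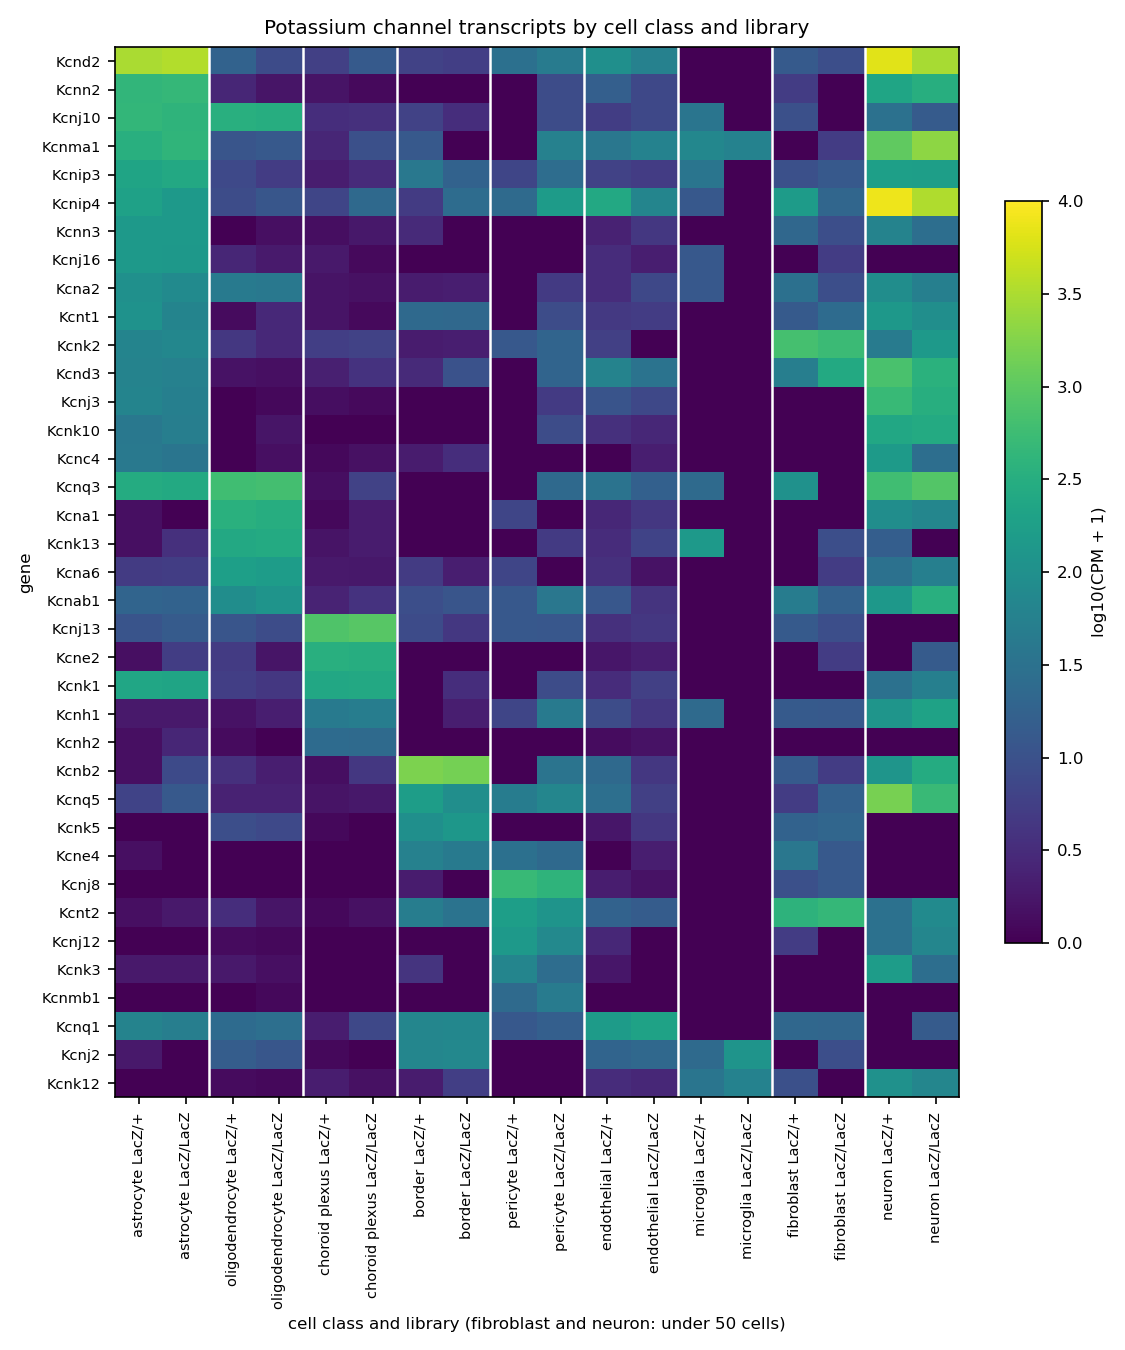
Levels of 37 of the potassium channel genes that reached 20 CPM in both libraries of a compared class (rows), in each class and library (columns), coloured by log10 of CPM plus 1. Blocks of high values sit in a single class for most genes, and the pair of columns of a class looks alike except in endothelial-like, pericyte-like and microglia-like cells, where several genes differ between the columns.

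Inward rectifiers differed in their class from gene to gene. Kcnj8, the pore of the ATP-sensitive channel of mural cells, was measured at 498 CPM (interval 397 to 615) in control and 395 CPM (323 to 478) in mutant pericyte-like cells, in 27 of 34 and 33 of 49 cells. In endothelial-like cells, of similar depth, only 2 of 525 and 1 of 306 cells held a Kcnj8 UMI. Its partner Abcc9 stood at 2125 and 2233 CPM in pericyte-like cells, and a UMI of both genes was found in 27 of 34 and 32 of 49 cells. Counts of cells holding both genes, here and below, were not compared with those that each gene's own share would give. The alternative pair, Kcnj11 and Abcc8, had no UMI in any pericyte-like cell, which allows up to 17.6 CPM in the control class and 11.3 in the mutant. Kcnj12, another inward rectifier, was also led by pericyte-like cells, which had 146 CPM (94.7 to 216) and 75.2 CPM (45.9 to 116).

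Kcnj13, an inward rectifier of transporting epithelia, reached 799 CPM (774 to 825) in control and 901 CPM (871 to 932) in mutant choroid plexus-like cells, and 98.0% and 99.2% of these cells held a UMI. The distribution was even: the median cell had 719 and 840 CPM, and the highest cell contributed 1.04% and 1.59% of the UMIs. In astrocyte-like cells, which are shallower, 7.57% and 7.76% of cells held a Kcnj13 UMI, and in endothelial-like cells 1.33% and 1.63%. In oligodendrocyte-like cells, of similar depth to choroid plexus-like ones, 17 of 250 and 25 of 234 cells held one, with 36 and 32 UMIs in all, and in border-like cells 10.6% and 5.36% did. Thinned to 2000 UMIs per cell, the shares were 76.0% and 77.1% in choroid plexus-like cells, 2.07% and 0.866% in oligodendrocyte-like cells and 0.421% and 1.12% in endothelial-like cells. A single control oligodendrocyte-like cell of 30058 UMIs held 52.8% of the Kcnj13 UMIs there, and was also the top cell for Kcnk1 and Kcne2. In mutant astrocyte-like cells the top cell held 46.7% of the Kcnj13 UMIs. The gene (chr1:87386363-87394729, GRCm38) lies inside Gigyf2 on the opposite strand, and whether counting used the strand is not given in the sources used here.

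Kcnj10, the main inward rectifier of glia, was shared by both macroglial classes. Astrocyte-like cells held Kcnj10 at 450.5 CPM (423 to 479) and 403 CPM (367 to 441), and oligodendrocyte-like cells held it at 334 CPM (315 to 354) and 308 CPM (292 to 325), so the classes differed by more than counting error and by less than the 3-fold rule. Choroid plexus-like cells, deeper than astrocyte-like ones, held 2.35 and 2.60 CPM. Kcnj16, which forms mixed channels with Kcnj10, separated these glial classes, with 142 CPM (127 to 158) and 136 CPM (115 to 159) among astrocyte-like cells against 1.73 and 0.939 CPM in oligodendrocyte-like cells. Astrocyte-like cells with a UMI numbered 206 of 251 and 95 of 116 for Kcnj10 and 144 and 71 for Kcnj16. A UMI of both genes was found in 130 and 63 of them. Kcnj3, a G-protein-gated channel, was led by astrocyte-like cells at 63.5 and 51.5 CPM, but only 13.9% and 11.2% of cells held a UMI, and it was higher in neuron-like cells at 491 and 319 CPM. Kcnj2, a strong inward rectifier, stood at 68.7 and 71.9 CPM in border-like cells and 18.5 and 21.7 CPM in endothelial-like cells. It was also the highest channel gene of microglia-like cells by mean CPM, but on 2 UMIs in each library.

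Among the tandem-pore leak channels, Kcnk1 was held by an epithelial and a glial class alike. Choroid plexus-like cells had 248.7 CPM (235 to 263) and 262 CPM (246 to 279) of Kcnk1 and astrocyte-like cells 228 CPM (209 to 249) and 219 CPM (193 to 248), and the intervals of both classes overlap within each library. Oligodendrocyte-like cells, deeper than astrocyte-like ones, had 4.60 and 3.52 CPM. Kcnk13 was present in 88.4% and 91.5% of oligodendrocyte-like cells. Its levels were 255 CPM (239 to 273) and 276 CPM (260 to 292). It also had 12 UMIs in 6 of 44 control microglia-like cells, or 138 CPM (71.2 to 241), and no UMI in the 10 mutant ones, where a count of 0 allows up to 177 CPM. Kcnk5, an acid-sensitive leak channel, was led by border-like cells, with 97.9 CPM (79.4 to 119) and 130 CPM (107 to 156), with 8.06 and 6.58 CPM in oligodendrocyte-like cells of similar depth. Kcnk2, a channel opened by stretch, and Kcnk10, its close relative, were led by astrocyte-like cells at 61.7 and 71.3 CPM and at 38.4 and 50.7 CPM. Both were higher outside the compared classes: Kcnk2 in fibroblast-like cells at 652 and 539 CPM, and Kcnk10 in neuron-like cells at 253 and 279 CPM.

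Voltage-gated subunits made up 60.8% and 62.1% of the channel CPM of astrocyte-like cells and 83.3% and 81.8% of that of border-like cells. Kcnd2, which carries a fast inactivating current in neurons, was the most abundant channel transcript of astrocyte-like cells, with 3103 CPM (3030 to 3177) and 3460 CPM (3354 to 3568). It was found in 84.9% and 87.1% of them, against 8.80% and 10.7% of oligodendrocyte-like cells, and neuron-like cells had 6633 and 3001 CPM. Kcnb2, a delayed rectifier, held a comparable place in border-like cells, with 1651 CPM (1571 to 1733) and 1454 CPM (1375 to 1536) in 64 of 66 and 54 of 56 cells. In neuron-like cells Kcnb2 stood at 119 and 292 CPM. Kcnd2 and Kcnb2 span 514 and 436 kb, and UMIs of such long genes can include intronic reads. Rankings of genes within a class, shares of families and sums over genes set them beside short genes and carry this limit.

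Kcna1 and Kcna6 were led by oligodendrocyte-like cells, and Kcnq3, which was not, was their highest channel gene. Kcnq3, a subunit of the M-current, stood at 592 CPM (567 to 619) and 632 CPM (608 to 656), with 290 and 266 CPM in astrocyte-like and 595 and 837 CPM in neuron-like cells. Kcna1, an axonal delayed rectifier in neurons, reached 341 CPM (322 to 361) and 310 CPM (293 to 327), in 84.0% and 89.7% of cells. Astrocyte-like cells held 1 Kcna1 UMI in the control and none in the mutant library. Kcna6, its neighbour 61.9 kb away on chromosome 6, was at 179 CPM (165 to 193) and 161 CPM (149 to 173). Kcna6 was found in 200 of 250 and 212 of 234 oligodendrocyte-like cells, Kcna1 in 210 and 210, and both together in 178 and 190. Kcna2, of the same subfamily, was instead higher in astrocyte-like cells, at 102 and 81.6 CPM, than in oligodendrocyte-like cells, at 41.7 and 39.0 CPM.

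Other voltage-gated genes were lower. Kcnq1, which pairs with KCNE subunits in epithelia and heart, was the highest channel gene of endothelial-like cells by the mean of both libraries, with 155 CPM (141 to 171) and 199 CPM (178 to 221), in 38.1% and 42.5% of cells, with 66.6 and 69.7 CPM in border-like and 60.8 and 49.8 CPM in astrocyte-like cells. Its span contains the antisense RNA gene Kcnq1ot1, and whether counting kept the strands apart is not given. Kcnh1 and Kcnh2, both of the ether-a-go-go family, stood at 41.4 and 49.1 CPM and at 24.3 and 23.4 CPM in choroid plexus-like cells, and only Kcnh2 met the rule for leading, since Kcnh1 had 41.4 CPM on 11 UMIs in mutant pericyte-like cells. Kcnc4 was led by astrocyte-like cells at 40.7 and 34.4 CPM, but was higher in neuron-like cells by the mean of both libraries.

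**Figure D2:**
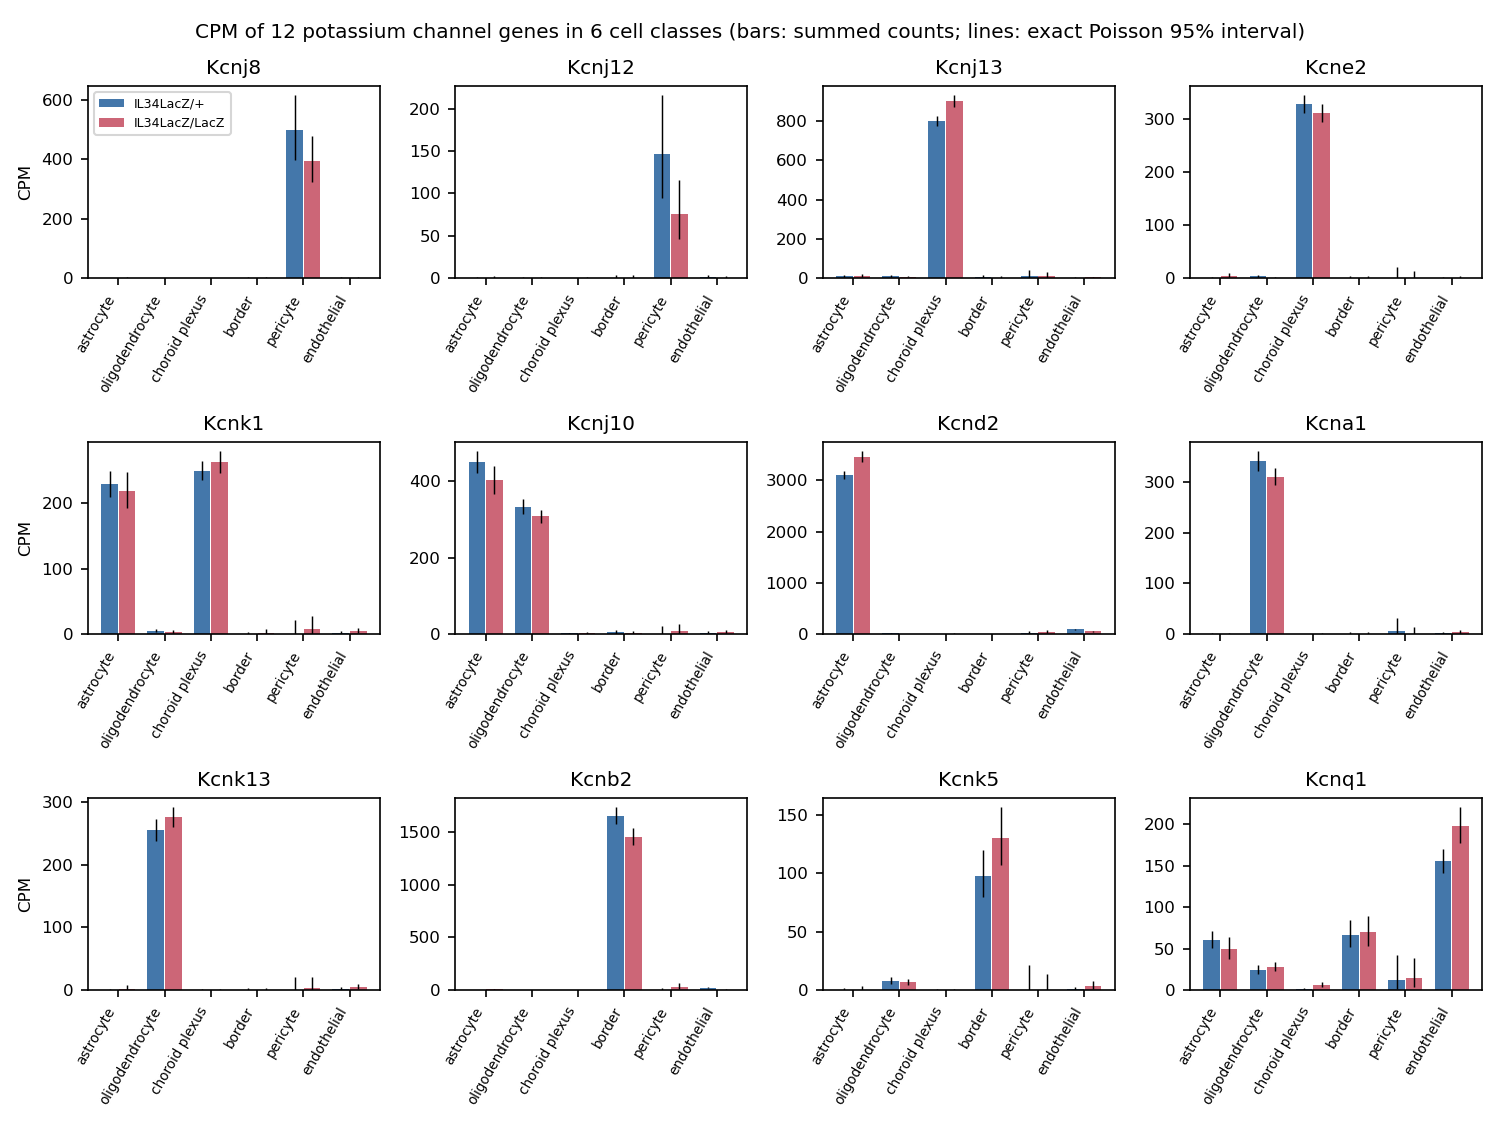
CPM of 12 channel genes in 6 classes (bars; control IL34LacZ/+ and mutant IL34LacZ/LacZ side by side) with exact Poisson 95% intervals (lines), each panel on its own linear axis from 0. Kcnj8, Kcnj13, Kcne2, Kcna1 and Kcnb2 stand in a single class, Kcnk1 and Kcnj10 in a pair of classes, and Kcnq1 is highest in endothelial-like cells while present in others.

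Of the 8 channels opened by calcium or sodium, 4 were led by 1 class. Kcnn2 and Kcnn3, small-conductance calcium-activated channels, were led by astrocyte-like cells, Kcnn2 with 435 CPM (408 to 463) and 458 CPM (420 to 498) and Kcnn3 with 141 CPM (126 to 158) and 141 CPM (120 to 164). Kcnma1, the large-conductance pore, was led by the same class at 333 CPM (310 to 358) and 418 CPM (382 to 457), with 1056 and 2098 CPM in neuron-like cells. Kcnt2, a sodium-activated channel, was led by pericyte-like cells at 176 and 117 CPM on 30 and 31 UMIs, but was higher in fibroblast-like cells at 379 and 462 CPM. Its relative Kcnt1 was at 109 and 63.5 CPM in astrocyte-like cells and at 134 and 93.0 CPM in neuron-like cells, the latter on 9 and 7 UMIs.

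Auxiliary subunits were spread over the classes as well. Kcne2, a partner of KCNQ and other pores, was at 327 CPM (311 to 344) and 310 CPM (293 to 329) in choroid plexus-like cells, and a UMI of both Kcne2 and Kcnj13 was found in 317 of 349 and 235 of 257 of them. Outside that class it had 1 and 5 UMIs in astrocyte-like and 2 and 2 UMIs in endothelial-like cells. In control oligodendrocyte-like cells it stood at 4.03 CPM, with a UMI in 1.2% of cells. Kcnip3, a calcium-binding partner of Kcnd2, was led by astrocyte-like cells at 213 and 260 CPM, and 162 of 251 and 80 of 116 of these cells held a UMI of both. Kcnip4, of the same family, was highest in neuron-like cells at 7941 and 3333 CPM and stood at 194 and 146 CPM in astrocyte-like cells. Kcnab1, a beta subunit of Kcna channels, was led by oligodendrocyte-like cells at 90.4 and 117 CPM. By the mean of both libraries it was higher in neuron-like cells. It was found in 138 of 250 and 144 of 234 oligodendrocyte-like cells, and with Kcna1 in 120 and 126.

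Summed over the 71 genes, channel transcripts were most abundant in astrocyte-like cells, at 6317 and 6604 CPM, followed by border-like cells at 2365 and 2094, oligodendrocyte-like cells at 1998 and 1977, choroid plexus-like cells at 1496 and 1657, pericyte-like cells at 1212 and 1489, and endothelial-like cells at 947 and 622 CPM. Endothelial-like cells thus stood lowest of these 6 classes in both libraries. There 5 genes passed 20 CPM in both libraries, against 18 in astrocyte-like cells. The sums lean on single long genes: Kcnb2 gave 1651 and 1454 CPM of the border-like sums. Kcnd2 gave 3103 and 3460 CPM of the astrocyte-like sums. Across the 71 genes the levels of the libraries ranked alike in astrocyte-like cells (Spearman 0.91), oligodendrocyte-like cells (0.90) and choroid plexus-like cells (0.86), less in border-like (0.79) and endothelial-like cells (0.74), and least in pericyte-like (0.59) and microglia-like cells (0.46), where counts are few. These coefficients are across genes and are given as a description.

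Levels were then compared between the mutant and control libraries within each class. A gene was counted as differing where it had at least 30 UMIs in the class, its ratio passed 1.5-fold and the counting interval left out 1. This held for 26 of 87 gene and class pairs, 8 higher and 18 lower in the mutant library, where 8.12% of 50116 pairs over all genes differed. The pairs were unevenly spread. In endothelial-like cells 12 of 17 genes differed, 2 higher and 10 lower (9.55% of all genes differed, with 3.1% higher and 6.46% lower), and the median log2 ratio of the 17 was -0.88 against -0.03 over all genes. In choroid plexus-like cells 4 of 10 differed, all higher (8.98% of all genes differed, with 7.62% higher and 1.35% lower). In astrocyte-like cells 5 of 28 differed, 1 higher and 4 lower (6.48% of all genes, with 2.24% higher and 4.24% lower), and in oligodendrocyte-like cells 1 of 18, lower (4.55%, with 1.83% higher and 2.72% lower). In pericyte-like cells 2 of 4 differed, 1 each way (14.6%, with 6.53% higher and 8.06% lower), and in border-like cells 2 of 10, both lower (8.79%, with 3.11% higher and 5.68% lower). In microglia-like cells no channel gene had enough UMIs.

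The endothelial-like differences lay in genes found in few of the cells, at most 10.9% (Kcnd3, control). Kcnip4 was at 260 CPM (242 to 280) in the control and 65.0 CPM (53.5 to 78.3) in the mutant library, a log2 ratio of -2.00, yet its UMIs sat in 47 of 525 and 28 of 306 cells, which are 8.95% and 9.15%. Kcnb2 stood at 22.4 and 3.51 CPM, Kcnq5, an M-current subunit, at 27.9 and 4.68 CPM, Kcnip1 at 14.1 and 1.76 CPM, Kcnh7, of the ether-a-go-go family, at 23.2 and 6.44 CPM, and Kcnab1 at 11.2 and 2.93 CPM. Smaller log2 ratios belonged to Kcnn2 (-1.24), Kcnq3 (-1.01), Kcnd3 (-0.88) and Kcnd2 (-0.78), and Kcnma1 was higher (0.65). Kcnq1 was at 155 and 199 CPM and did not pass 1.5-fold.

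Neuron markers were present in the same cells. In endothelial-like cells 10 of 10 neuron markers were detected in the control library and 8 of 10 in the mutant, at 162 and 136 CPM in sum, and 51 of 525 and 26 of 306 cells held at least 2 UMIs of them. A single control cell of 17690 UMIs, with 30 neuron marker UMIs, was the top cell for 6 channel genes, and a single mutant cell of 16853 UMIs, with 50 neuron marker UMIs, for 5, Kcnd2 and Kcnip4 among them. Without the cells holding at least 2 neuron marker UMIs, the log2 ratio of Kcnip4 in endothelial-like cells was 0.05 (-0.79 to 0.88), that of Kcnd2 0.95 (0.14 to 1.77) and that of Kcnh7 1.05 (-0.66 to 2.86), so the direction of these 3 turned. Kcnb2 (-0.36), Kcnq5 (-0.86), Kcnip1 (-1.53) and Kcnma1 (0.64) kept their direction on fewer UMIs but no longer passed. Kcnn2 (-1.58, interval -3.15 to -0.28), Kcnq3 (-2.27, -5.44 to -0.16) and Kcnd3 (-1.08) stayed lower and past. When classes were taken from clusters instead of the marker gate, Kcnb2 in endothelial-like cells had 9 and 6 UMIs, or 3.48 and 3.43 CPM. Kcnd3, a relative of Kcnd2, was at 60.5 CPM (51.6 to 70.4) and 32.8 CPM (24.8 to 42.6), its top cells held 7.19% and 12.5% of its UMIs, and it passed under each of the 8 alternative choices of cells tried, while Kcnn2 and Kcnq3 each lost the call under others of these choices. Markers of other classes also differed in endothelial-like cells: in control and mutant cells those of astrocytes summed to 209 and 124 CPM, of pericytes to 59.4 and 17.6, of fibroblasts to 22.1 and 7.03, of border cells to 99.2 and 73.2, and of erythrocytes to 2783 and 5139 CPM. Their part in the differences was not tested.

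In the other classes differences were fewer. In choroid plexus-like cells Kcnip4 (5.98 and 22.6 CPM), Kcnma1 (1.71 and 8.32) and Kcnd2 (4.70 and 12.5) were higher in the mutant library, all at low levels. The top mutant cell held 66.7% of the Kcnip4 UMIs and 52.1% of the Kcnd2 UMIs, and it was the same cell, of 15623 UMIs with 13 neuron marker UMIs, although the neuron markers of the whole class summed to 17.9 and 17.7 CPM. Kcnj13, Kcne2 and Kcnk1, the main channel genes of this class, did not pass 1.5-fold. In astrocyte-like cells Kcnt1 was lower, with 109 CPM (96.2 to 124) and 63.5 CPM (49.9 to 79.8), Kcnh5 at 18.8 and 8.59 CPM and Kcnh7 at a log2 ratio of -0.98, while the modifier subunit Kcns3 was higher at 13.4 and 27.5 CPM. None of these calls passed under each of the 8 alternative choices of cells tried. For Kcnh7 a single control cell held 43.4% of the UMIs, and the call was lost without the top cells (-0.49), with the stricter gate (-0.17) and with classes from clusters (-0.29). None of the 4 highest astrocyte-like genes, Kcnd2, Kcnn2, Kcnj10 and Kcnma1, differed by this rule.

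Pericyte-like cells differed in Kcnj12, at a log2 ratio of -0.96 (-1.89 to -0.05) that lost the call with classes from clusters (-0.73), and in Kcnip4, at 23.4 and 158 CPM on 4 and 42 UMIs. For Kcnip4 a single mutant cell held 71.4% of the UMIs and also 15 neuron marker UMIs, the neuron markers of the class summed to 41.0 and 128 CPM, and without cells of at least 2 such UMIs the log2 ratio was -0.55 on 4 and 4 UMIs. In border-like cells Kcnq5 was lower, at 170 CPM (145 to 197) and 93.6 CPM (74.5 to 116), in 21 of 66 and 15 of 56 cells. Neuron markers stood there at 12.1 and 32.0 CPM in sum, and Kcnq5 passed under each of the 8 alternative choices of cells tried. The tenth of border-like cells highest for Kcnq5 held 68.5% and 73.2% of its UMIs. Counting intervals take no account of such clustering, so the difference rests on few cells. Kcnip3 was also lower there at 38.4 and 17.1 CPM, but did not pass under each of the 8 choices. In oligodendrocyte-like cells Kcnd2 was lower at 17.3 and 7.28 CPM, and its direction turned when Scrublet-marked doublets were kept (log2 ratio 1.08). Without cells of at least 2 neuron marker UMIs, Kcnd2 in oligodendrocyte-like cells had a log2 ratio of -0.64 (-1.43 to 0.14). In choroid plexus-like cells Kcnd2 then had 0.35 (-0.58 to 1.29), so neither call was kept. Such ratios are not given here for every pair, and the part of neuron-derived transcripts in the differences was not tested.

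**Figure D3:**
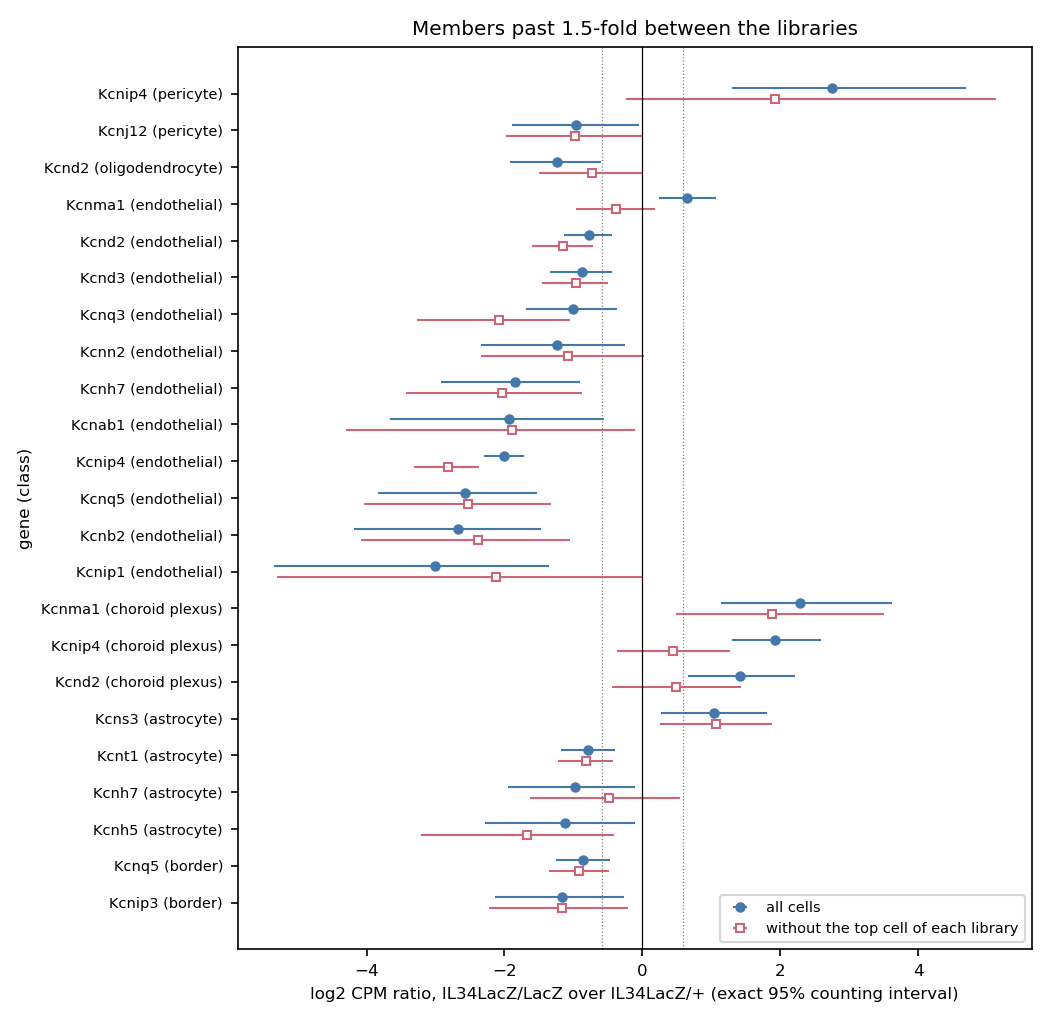
Log2 ratio of CPM, mutant over control, for 23 of the gene and class pairs counted as differing, with all cells (circles) and without the cell of most UMIs in each library (squares), each with its exact 95% counting interval. Kcnma1 in endothelial-like cells crosses to -0.38 without the top cells, and Kcnd2 and Kcnip4 in choroid plexus-like cells shrink to 0.49 and 0.44.

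The weight of single cells was read next. For the 21 genes led by a class, the top cell held as little as 1.04% of the UMIs in that class (Kcnj13, control), and no gene passed 25%. The led genes and the differing pairs were not matched for UMIs, and Kcnj12 in pericyte-like cells is in both. Of the 26 differing pairs, 18 had a cell with over 25% of the UMIs in 1 of the libraries, and 17 still passed once the top cells were left out. Among genes with at least 10 UMIs, the median share of the top cell was 27.7% and 30.4% in endothelial-like cells against 6.88% and 8.47% in astrocyte-like cells. In control endothelial-like cells 15 of 26 such genes had a top cell over 25%, and in control astrocyte-like cells 3 of 32.

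**Figure D4:**
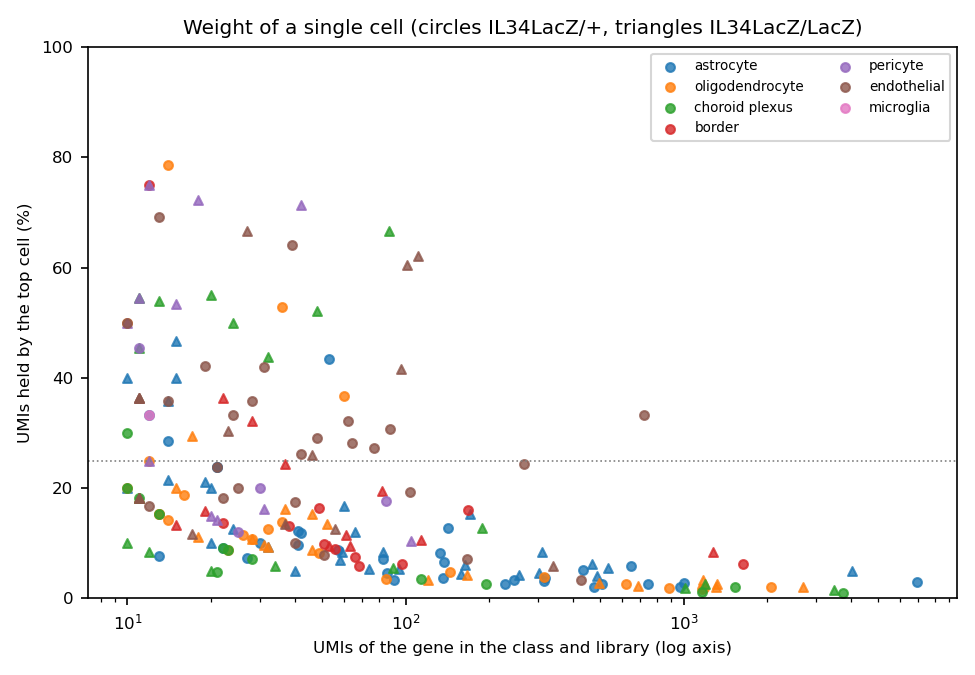
Share of a gene's UMIs held by its top cell (percent) against the gene's UMIs in that class and library (log axis), for genes with at least 10 UMIs; colours are classes, circles control and triangles mutant, and the dotted line is 25%. Endothelial-like points lie high, with medians of 27.7% and 30.4%, while genes with over 1000 UMIs lie near the bottom, the highest of them Kcnb2 in mutant border-like cells at 8.48%.

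A list of 30 other genes that handle potassium, among them the sodium pump, the cation-chloride cotransporters, their kinases and channel partners, was read in the same way, and 7 were led by 1 class. The sodium pump was divided by subunit: Atp1b2 was led by astrocyte-like cells at 1086 and 1031 CPM, Atp1b3 by oligodendrocyte-like cells at 677 and 592 CPM, and the pump regulator Fxyd1 by choroid plexus-like cells at 1397 and 1266 CPM. Atp1b1, another beta subunit, stood at 707 and 713 CPM in choroid plexus-like and 1471 and 1258 CPM in border-like cells. Hcn2, a cation channel opened by hyperpolarization, was led by oligodendrocyte-like cells at 331 and 339 CPM, where the cotransporter Slc12a2 was at 994 and 1024 CPM. Border-like cells led Slc12a7 (208 and 176 CPM) and Wnk4 (30.3 and 25.1 CPM) and held the kinase Stk39 at 1032 and 935 CPM. In endothelial-like cells the kinase Wnk1 was at 439.5 and 437 CPM.

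Of 93 pairs of these genes and classes, 13 differed between the libraries, 5 higher and 8 lower, against the 8.12% of all pairs given above. The astrocyte markers summed to 209 and 124 CPM in endothelial-like and to 335 and 258 CPM in oligodendrocyte-like cells, so they were lower in the mutant library, and their part in these differences was not tested. Dpp10, a partner of Kcnd channels, was lower in endothelial-like cells at 75.7 and 29.9 CPM, with 61.7% of the control UMIs in 1 cell, and higher in pericyte-like cells on 1 and 40 UMIs. In endothelial-like cells Slc12a7 (26.1 and 42.2 CPM) was higher and Hcn2 (35.5 and 23.4) lower. In oligodendrocyte-like cells Atp1b1 (9.21 and 3.76 CPM), Fxyd1 (10.6 and 3.99) and the kinase Oxsr1 (16.1 and 9.86) were lower. For Atp1b1 the call was lost without the top cells, at a log2 ratio of -0.60 (-1.77 to 0.55), and with at least 2000 UMIs per cell, at -0.31. Atp1b3 was lower in astrocyte-like cells at 48.3 and 30.1 CPM.

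Genes that lie side by side in the genome shared a class in some places and not in others. On chromosome 6 of GRCm38, Kcna1 (chr6:126640397-126646384) and Kcna6 (chr6:126708329-126740674) were both led by oligodendrocyte-like cells, and Kcnj8 and its partner Abcc9, 16.2 kb apart, both by pericyte-like cells. Kcnj16 and Kcnj2, 38.2 kb apart on chromosome 11, were not: Kcnj16 was led by astrocyte-like cells and Kcnj2 by no class. Kcnj2 was led by a class only when microglia-like cells were left out. Kcnj9 and Kcnj10, 11.9 kb apart on chromosome 1, also parted, since Kcnj9 had 3 and 1 UMIs in astrocyte-like cells. Gene span and UMIs over all barcodes correlated across the 71 genes (Spearman 0.48, a description), and the 23 genes spanning at least 100 kb held 55.7% of all channel UMIs.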

How the data were processed

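Libraries were made with the 10x Chromium Next GEM Single Cell 3-prime kit v3.1, per the labels' protocols. The authors deposited UMI counts per gene and barcode, with Cell Ranger, version 7.1.0 per the file headers. The genome build, per the submitters' processing notes, was GRCm38.p6 (mm10). The sources used here do not give whether intronic reads were counted or free RNA was removed. The deposited counts totalled 26679053 UMIs over 3901 control barcodes and 36696941 over 5400 mutant barcodes.

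Barcodes with at least 1000 UMIs, 500 genes and at most 15% mitochondrial UMIs were kept. The mitochondrial limit alone was passed by 38.5% of control and 47.8% of mutant barcodes, which were dropped. Scrublet (scanpy 1.11.5, Python 3.11.15) then marked 22 (1.32%) and 8 (0.681%) of the remaining barcodes as doublets, which were removed; missed doublets can carry transcripts of another class. The libraries shared 8 barcode sequences, 2 among kept cells. A cell took the class with the highest marker score, the mean of log-scaled expression over the markers of that class. At least 3 markers had to be detected, with a 1.5-fold lead over the next class. Erythrocyte-like cells needed 50% haemoglobin UMIs.

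For each class and library, summed counts were scaled to CPM of all UMIs in that class, with exact Poisson intervals. Ratios carry exact conditional binomial intervals. A count of 0 was read as allowing up to 3 counts. Values were given in full for the 4 genes of highest mean CPM in each class, for genes that differed between libraries and for genes led by 1 class, and from the other potassium-handling genes for those that differed and the 2 highest in each class. A few genes that entered the counts are not reported here by name. Thinning drew 2000 UMIs per cell and left out shallower cells. The scripts were tested on simulated data. Gene positions come from GENCODE M21 and upstream windows from RefSeq; 51 of the 71 genes had a window. The genes, marker lists and rules were chosen with earlier results of these data known.

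The alternatives were other cell filters, a stricter gate, classes from clusters, doublets kept, thinning, leaving out each gene's top cell, a 2-fold limit, a 60-UMI minimum and a 2-fold lead. Chosen after seeing the data were leaving out cells with neuron marker UMIs, comparing fibroblast-like and neuron-like cells too, and leaving out microglia-like cells.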

Additional observations from a re-analysis of the deposited data

Results flagged for a closer look

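The cells that no marker list claimed, 67 control and 65 mutant, entered no comparison, and the channel genes below stood higher in them than in any compared class. Over both libraries their mean levels were 911 CPM for Kcnip4, 64.0 for Kcnh7, 34.4 for Kcnip1, 24.6 for Kcnc1, 29.5 for Kcnc2, 49.3 for Kcnj6 and 36.0 for Kcnj15. In these cells markers of fibroblasts summed to 3219 and 3134 CPM, of border cells to 3306 and 2941, of astrocytes to 1204 and 1410 and of neurons to 416 and 686 CPM, and 23 of 67 and 22 of 65 cells held at least 2 neuron marker UMIs. Kcnj15, an inward rectifier, was even between the libraries at 36.1 and 35.8 CPM on 25 and 27 UMIs. When classes were taken from clusters, Kcnj15 stood at 17.9 and 21.5 CPM in border-like cells.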

How the results depend on the processing

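No paired analysis was possible because the labels give 1 library per genotype and no replicate numbers. The count of genes led by 1 class lay between 15 (cells thinned to 2000 UMIs) and 29 (2-fold lead), and all 21 genes remained with the stricter gate and with doublets kept. Without the microglia-like class the count was 23, with Kcnj2 and Kcnk13 added to the 21. With fibroblast-like and neuron-like cells compared too it was 18, of which 13 were shared with the 21. Kcnab1, Kcnc4, Kcnd2, Kcnip3, Kcnj12, Kcnn2, Kcnn3 and Kcnt2 were then no longer led by any class. Genes were matched by name and not by leading class. Among the shared genes, Kcnma1, Kcnj3 and Kcnk10 stood higher in neuron-like cells and Kcnk2 in fibroblast-like cells than in astrocyte-like cells. The counts of differing pairs moved more. Against 26 (8 higher, 18 lower), 16 differed with classes from clusters (9 lower), 15 without cells of at least 2 neuron marker UMIs (5 higher, 10 lower), 5 with thinned cells (0 higher, 5 lower), 16 without the top cell of each gene (3 higher), 17 at 2-fold (5 higher) and 17 at a minimum of 60 UMIs (5 higher). With no filter on cells 15 pairs were higher. For the other potassium-handling genes the count of 13 became 22 with no filter, 7 with thinned cells, and 8 at 2-fold and at 60 UMIs. Thinning and higher minimums leave fewer UMIs to test; for the other settings the cause was not tested.

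Of the 26 pairs, 17 kept their direction in every alternative choice of cells that left UMIs in both libraries to form a ratio. Without cells of at least 2 neuron marker UMIs, the log2 ratio turned for Kcnd2 (0.95), Kcnip4 (0.055) and Kcnh7 (1.05) in endothelial-like cells and for Kcnip4 in pericyte-like cells (-0.55). Kcnd2 in oligodendrocyte-like cells turned with no filter (0.94), doublets kept (1.08) and thinned cells (0.33). Kcnma1 in endothelial-like cells turned without its top cells (-0.38), Kcnh7 with classes from clusters in endothelial-like cells (0.19) and with no filter in astrocyte-like cells (0.35). Thinning turned Atp1b1 in oligodendrocyte-like cells (0.067), and clusters turned Dpp10 in endothelial-like cells (1.35). Depth limits pericyte-like and microglia-like cells most: a count of 0 allows up to 17.6 and 11.3 CPM in the former and 34.5 and 177 CPM in the latter.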

Other observations

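Pericyte-like cells held further channel genes on few UMIs. Kcnmb1, the smooth muscle beta subunit of the large-conductance channel, was at 23.4 and 45.1 CPM on 4 and 12 UMIs, and Kcnk3, an acid-sensitive leak channel, at 64.4 and 26.3 CPM on 11 and 7 UMIs. No endothelial-like cell of either library held a Kcnmb1 UMI, which allows up to 1.09 and 1.76 CPM. Kcne4, an inhibitory auxiliary subunit, was at 29.3 and 22.6 CPM in pericyte-like and 56.5 and 42.3 CPM in border-like cells. Kcnk6 had 8 UMIs in control microglia-like cells (91.9 CPM, 39.7 to 181) and none in the 10 mutant ones.

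Genes led by the same class were spread differently over its cells. In astrocyte-like cells the tenth of cells highest for a gene held 33.7% and 34.3% of the Kcnd2 UMIs and 31.9% and 36.6% of the Kcnn2 UMIs, but 93.0% and 98.3% of the Kcnj3 UMIs and 65.2% and 65.1% of the Kcnk2 UMIs. Genes with few UMIs per cell are concentrated by counting alone, and Kcnj3 had 142 and 60 UMIs and Kcnk2 138 and 83, so a like number of UMIs gave different shares.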
